A study of Rattus norvegicus with 36 samples.

Results

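The gene set described here holds 165 genes that stood higher in rat lung slices given Pirf together with TGFb than in slices given TGFb alone, and that neither time in culture nor TGFb moved by more than a set limit. They were chosen from the 14984 genes that the authors list as expressed and protein coding, by group means of log2 CPM (log2 of counts scaled to a common library size), each over 6 libraries. A gene entered when its highest group mean was 1 or more, when untreated slices at 72 and at 0 differed by less than 1 (C), when TGFb alone and untreated slices at 72 differed by less than 0.5 (T), and when Pirf with TGFb exceeded TGFb alone by 0.8 or more (P). Within the limits on level, C and T lay 8240 genes, of which these 165 made up 2.0%. With the limit on P mirrored, 180 genes (2.18%) stood lower with Pirf. The rule holds no limit on a difference with Sora or Nint, which enter it just through the highest group mean. The word "only" in a name such as genes raised by Pirf only would thus cover culture and TGFb, not Sora or Nint.

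The slices are precision-cut sections of living rat lung kept in culture, and total RNA was sequenced after removal of ribosomal RNA. There were 36 libraries, 6 in each of 6 groups: TGFb with Pirf, TGFb with Sora, TGFb with Nint and TGFb with no drug, all at the labelled time 72, and slices with neither TGFb nor drug at 72 and at 0. The labels give no unit for time, no dose, and no strain, sex or age, and nothing in them ties the 6 replicates of a group to separate animals. All p-values therefore speak of the spread among these libraries, which may be technical. The libraries held 18971560 to 32933012 counts at 72 and 15886958 to 23255558 at 0, and their number limits the precision of every level.

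Pirf, Nint and Sora are read as pirfenidone, nintedanib and sorafenib. Pirfenidone is a small molecule used against idiopathic pulmonary fibrosis, and its molecular target is not settled. Nintedanib, used in the same disease, blocks the receptor kinases for platelet-derived, fibroblast and vascular endothelial growth factors, and sorafenib, a cancer drug, blocks RAF kinases and an overlapping set of receptor kinases. TGFb is the growth factor that turns fibroblasts into contractile, matrix-producing cells, and drugs for lung fibrosis are often judged by how far they undo its effect. The genes of this set bear less on that question by their choice, since the limit on T leaves out larger moves with TGFb alone. Smaller moves remain. T was below 0 in 104 genes and above 0 in 61, and it was 0.4 or more in size in 23.

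The deposited tables carry Ensembl gene identifiers and no gene names, and the reference tables at hand pair none of them with a name, a function or a promoter. Genes are therefore given by identifier, for each comparison at most 2 on the higher and 2 on the lower side. No function, cell type or sequence is assigned to any of them, and the cell types in the slices were not checked against markers. In bulk tissue, more cells of a type and more RNA per cell cannot be told apart. Log2 CPM is not divided by gene length, so levels are compared between groups for the same gene and not between genes.

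P, the value that chose the genes, had a median of 0.96 over the set, with quartiles of 0.86 and 1.16 and a range of 0.8 to 3.46 on the log2 scale. It lay between 0.8 and 0.9 in 59 genes, between 0.9 and 1.0 in 35, between 1 and 1.5 in 55 and between 1.5 and 2 in 14, and it reached 2 in only 2. The 3 genes nearest inside the limit had P values of 0.8016, 0.8018 and 0.8032, and the 3 nearest outside had 0.7987, 0.7974 and 0.7968. Another 81 genes within the other limits had a P between 0.7 and 0.8, so the edge of the set runs through a continuous distribution. The other limits were close for few genes: T was 0.4 or more in size in 23 genes and C was 0.9 or more in size in 11.

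**Figure D1:**
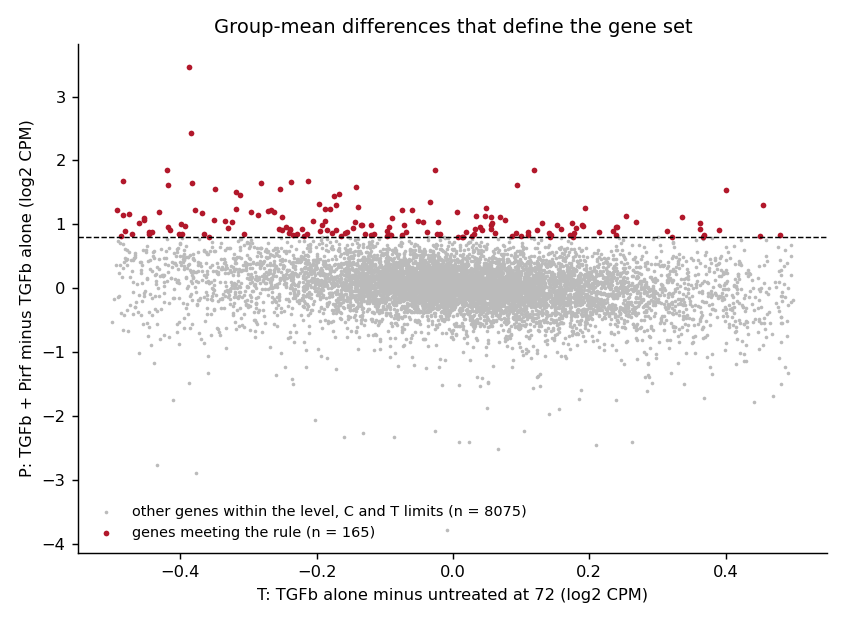
Each point is 1 of the 8240 genes within the limits on level, C and T; the horizontal axis is T and the vertical axis is P, both as differences of group means of log2 CPM. The 165 genes of the set (red) lie at or above the dashed line at 0.8, and all but 2 of them lie below a P of 2.

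The 2 genes with the largest P had low levels that varied widely between libraries. ENSRNOG00000001873 had a lowest, median and highest log2 CPM of 0.19, 1.59 and 2.35 with Pirf, against -4.18, -1.98 and -0.60 with TGFb alone. Untreated slices at 72 ranged from -3.95 to -0.03 and slices at 0 from -6.60 to 1.16. ENSRNOG00000009203 had 0.62, 1.69 and 2.31 with Pirf, against -1.54, -1.02 and -0.02 with TGFb alone. In both genes all 6 Pirf libraries lay above all 6 libraries with TGFb alone, but single libraries of other groups reached the Pirf range. Sora libraries were scattered, from -2.57 to 0.50 in the first gene and from -2.47 to 0.82 in the second, while Nint libraries ranged from -2.26 to -1.38 and from -2.23 to -0.31. P was 3.46 and 2.43, and since these values chose the genes no test goes with them.

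Across the set, Pirf was the highest of the 6 group means in 146 of 165 genes, against 22.4% of all coding genes. Time 0 was highest in 16 and Sora in 3, where they were highest in 35.2% and 9.39% of coding genes. No gene had its highest mean with Nint, against 11.5% of coding genes. The limits on T and P exclude TGFb alone and untreated slices at 72 from being highest. The 6 Pirf libraries lay above all 6 libraries with TGFb alone in 135 genes, where 14.3% of all coding genes did so. They lay above all 30 other libraries in 51 genes, against 2.78% of coding genes. In the quasi-likelihood fit across all genes, 159 of the 165 were called higher with Pirf at an adjusted p under 0.05, where 25.1% of the 15644 genes tested were, and 0 were called lower, where 26.4% were. The rule used this contrast, so these counts only describe the set. The fitted log2 fold change ranged from 0.23 to 3.25 with a median of 0.92, and was under 0.8 in 27 genes and under 0.5 in 1.

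Set against slices that had seen no TGFb, the picture was alike. Pirf with TGFb exceeded untreated slices at 72 in all 165 genes, by a median of 0.93 and by no less than 0.32, a sign that the limits on T and P fix. It exceeded time 0 in 149 genes (90.3%), against 55.5% of all genes within the limits on level, C and T. The median difference from time 0 over the set was 0.76. Among the 105 genes that stood lower in untreated slices at 72 than at 0, Pirf lay above the time-0 mean in 89, with a median difference of 0.45. Among the 60 that stood higher at 72 it lay above time 0 in all 60, with a median of 1.42. The sign in those 60 is again fixed by the limits on T and P. The Pirf mean thus stood above the time-0 mean in most of the set, which the limits on T and P favour. Over the set C had a median of -0.17 and T a median of -0.12, against 0.05 and 0.01 over all genes within the limits, and a low mean with TGFb alone favours both a negative T and a high P.

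The genes did not stand alike in all libraries of a group. For each library the median over the 165 genes was taken of the log2 CPM minus the gene's mean with TGFb alone. The 6 Pirf libraries had medians of 0.87 to 1.09. Libraries with TGFb alone ranged from -0.31 in replicate 4 to 0.25 in replicate 3. Untreated slices ranged from -0.11 to 0.32 at 72 and from 0.25 to 0.34 at 0. The median over all coding genes stayed between -0.09 and 0.04 in every library. The values were scaled per library, so the shifts are relative to that scaling. Pirf libraries were clear of all others, a gap from TGFb alone that the limit on P chose. Among the rest the spread within TGFb alone was as wide as several differences between groups.

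**Figure D2:**
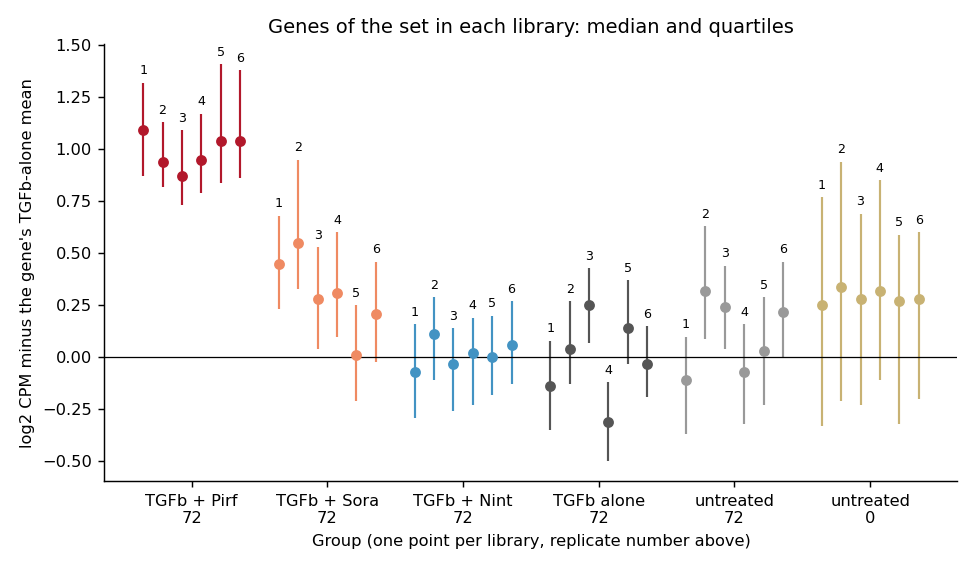
Points are the medians over the 165 genes, and bars their quartiles, of log2 CPM minus the gene's TGFb-alone mean, for each of the 36 libraries, with the replicate number above each bar. Pirf medians lie at 0.87 to 1.09, Sora medians between 0.01 and 0.55, and Nint medians between -0.07 and 0.11. The genes were chosen for high Pirf values against TGFb alone.

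Within groups the genes also moved together to some degree. The rule has no term for such deviations, but its group means come from the same libraries. After each group mean was removed, pairs of genes of the set had a median correlation of 0.18 across the 36 libraries (quartiles -0.04 and 0.39), against 0.02 (quartiles -0.21 and 0.25) for pairs among all 8240 genes within the limits. This is a description: all pairs share the same libraries and scaling. The median SD within a group was 0.189 with Pirf, where all coding genes had 0.129. For the set it was 0.299 with Sora, 0.232 with Nint and 0.339 with TGFb alone, and for all coding genes 0.195, 0.139 and 0.189. The genes of the set thus varied more between replicates than the typical coding gene in each of these groups, and both varied least with Pirf. A choice by differences of means favours genes of wide spread, so this is not independent of the rule.

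Membership rested in part on single libraries. P stayed at 0.8 or more in 114 genes in each of the 12 settings that leave out 1 Pirf or 1 TGFb-alone library, and at 0.5 or more in 164. When each library of the 4 groups in the rule was left out in turn, 81 of the 165 genes met all limits in each of the 24 settings. Without replicate 3 with TGFb alone 208 genes met the rule, and without replicate 4 there were 143.

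A further property outside the rule is how the counts were made. RSEM divides reads that match several genes, which leaves counts that are not whole numbers. In 142 of the 165 genes (86.1%) every count was whole (within 1e-06), against 79.3% of all coding genes, and 10 genes (6.06%) had non-whole counts in more than 50% of the libraries in which they were seen, against 11.5%. Non-whole counts thus appear in a small part of the set. The levels of those 10 genes are uncertain, and those of genes with non-whole counts in fewer libraries may be too. Among genes that the authors do not list as coding, 306 lay within the same limits on level, C and T, and 7 of them (2.29%) met the limit on P.

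Sora and Nint, both given with TGFb, were compared next, because neither group enters C, T or P. Their means had no part in the choice of genes, apart from the minimum level. The fit, however, estimated the spread of each gene from all 36 libraries, among them those that chose the genes. Of the 165 genes, 36 (21.8%) were called higher with Sora than with Nint and 0 were called lower. Over all 15644 genes tested, 6.43% were called higher and 4.56% lower. At an unadjusted p under 0.05, 76 genes of the set were higher with Sora and 3 lower, where 15.6% and 12.5% of all genes were. DESeq2 called 42 genes of the set higher and 2 lower, and limma-voom 36 higher and 2 lower, where they called 14.9% and 13.4% of all genes in either direction. A fit of just the 12 Sora and Nint libraries called 34 higher and 1 lower, where 11.3% of all genes were called. Of the 36 genes above, 27 were among its calls. The median log2 fold change over the set was 0.31, against 0.02 over all genes tested, and 147 of 165 genes had a value above 0. Among the 180 genes lowered with Pirf under mirrored limits the median was -0.34, with 0 called higher with Sora than with Nint and 49 called lower.

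**Figure D3:**
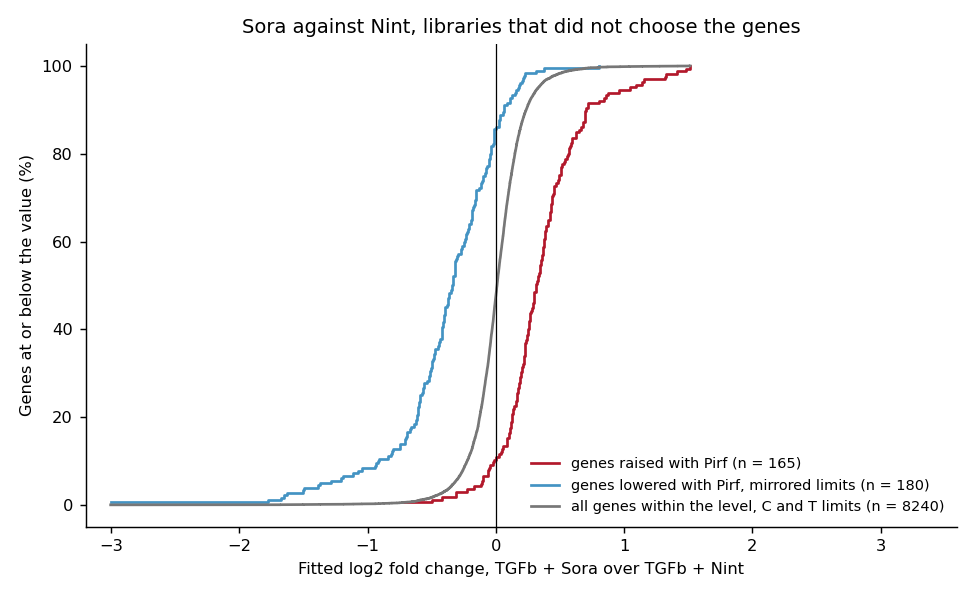
Curves give the percentage of genes at or below each fitted log2 fold change of Sora over Nint, both with TGFb. The curve of the 165 genes (red) crosses 50% at 0.31, that of the 180 genes under mirrored limits (blue) at -0.34, and that of all genes within the limits on level, C and T (grey) near 0.

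The called genes had log2 fold changes of 0.23 to 1.48 with a median of 0.58, and 6 of them changed at least 2-fold. In 33 of the 36 the Pirf mean was still above the Sora mean. All 6 Sora libraries lay above all 6 Nint libraries in 12 genes of the set, where 2.5% of coding genes did so, and the reverse held in 0, against 2.14%. By size of P, a split that was not tested, the median log2 fold change of Sora over Nint did not rise steadily. It was 0.27 in the 59 genes with a P under 0.9, of which 11 were called. In the 35 genes with a P from 0.9 to under 1 it was 0.26, with 7 called. In the 71 genes with a P of 1 or more it was 0.47, with 18 called. Genes below and above 0 in C had medians of 0.31 and 0.32.

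ENSRNOG00000025608 had the highest log2 fold change among the called genes. Its log2 CPM had a lowest, median and highest value of 3.10, 4.62 and 4.89 with Sora, against 2.57, 2.94 and 3.70 with Nint. Sora replicate 5, at 3.10, lay inside the Nint range, and the other 5 lay above it, from 4.33 up. The log2 fold change was 1.48 (SE 0.43, adjusted p = 0.0248). With Pirf the gene stood at 4.42 to 4.99, with TGFb alone at 2.28 to 4.0, in untreated slices at 72 at 2.48 to 3.93, and at time 0 at 0.96 to 4.92. The call was lost without Sora replicate 1, 2 or 4 or Nint replicate 1 or 3 (adjusted p = 0.0521 to 0.0586), while the log2 fold change stayed between 1.38 and 1.66 over 19 alternatives.

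ENSRNOG00000008947, the other one, had 0.92, 2.62 and 3.15 with Sora, against 0.38, 1.16 and 1.78 with Nint. Again replicate 5 was the Sora library inside the Nint range. The log2 fold change was 1.42 (SE 0.43, adjusted p = 0.0307), and the call was lost without Sora replicate 1, 2, 3 or 4 or Nint replicate 1, 3 or 5 (0.0502 to 0.0806). With Pirf the gene lay between 1.99 and 2.44, and with TGFb alone between -1.04 and 3.11, where replicate 3 stood above every Pirf library. Its place in the set therefore rests on a TGFb-alone mean over widely spread libraries. In the quasi-likelihood fit it was not called higher with Pirf than with TGFb alone (log2 fold change 0.70, SE 0.42, adjusted p = 0.166).

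The number of genes called in this comparison depended on single libraries, in the set and over all genes, of which 11% were called in either direction with all libraries. In the set it was 20 without Sora replicate 1, 21 without replicate 2 and 21 without replicate 4 (6.32%, 6.28% and 5.98% of all genes), and 56 without replicate 5 (17.9%), the Sora library with the lowest median over the set (0.01, where the other 5 had 0.21 to 0.55). Without Nint replicate 1 it was 21 (7.05%). The scaling of libraries bears on it too: without scaling factors the median of all genes moved to 0.12 and that of the set to 0.41, with 55 genes called higher and 0 lower (16.5% of all genes called). Over all alternatives the median of the set stayed between 0.24 and 0.41.

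Each kinase inhibitor was then set beside TGFb alone, the comparison in which Pirf was read. The TGFb-alone libraries are shared with P and T, and genes chosen for a low mean in them are favoured to stand higher in any other group, so the values here are descriptions of the set. With Sora 34 genes (20.6%) were called higher and 0 lower, where 7.01% and 8.37% of all genes tested were. The median log2 fold change was 0.29, against 0.00 over all genes, and the difference of group means reached 0.8, the limit used for Pirf, in 8 genes (4.85%), against 4.47% of all coding genes and 0.182% of those within the limits on level, C and T. With Nint 2 genes (1.21%) were called higher and 2 lower, where 0.882% and 2.21% of all genes were, and the median was -0.05, against -0.02 over all genes. Group means with Nint reached the 0.8 limit in 2 genes (1.21%), against 1.82% of all coding genes and 0.0971% of those within the same limits. The Pirf mean exceeded the Sora mean in 162 genes, by a median of 0.71 over the set, and the Nint mean in all 165, by a median of 0.97; both carry the choice of high Pirf values.

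ENSRNOG00000033564 was 1 of 3 genes whose Sora mean exceeded the Pirf mean. Its log2 CPM was 3.87, 4.15 and 4.36 (lowest, median, highest) with Sora, against 1.72, 2.44 and 3.11 with TGFb alone, with no overlap. Pirf libraries lay between them, from 3.34 to 4.01, overlapping with Sora only above 3.87, and Nint libraries ranged from 1.95 to 3.57. The log2 fold change with Sora was 1.60 (SE 0.23), and it kept its call in all 19 alternatives. ENSRNOG00000025608, described above, had the next highest value with Sora (log2 fold change 1.24, SE 0.43), a call lost in 11 of the 19 alternatives (adjusted p = 0.0526 to 0.109). Those were the fit with no filter on low counts, and the fits without Sora replicate 1, 2, 3, 4 or 6 or without TGFb-alone replicate 1, 2, 4, 5 or 6.

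The number called with Sora was 21 without Sora replicate 1, 22 without Sora replicate 2, and 21 without replicate 4 or 6 with TGFb alone. The share of all genes called fell with it, to 11%, 10.5%, 10.4% and 11%, against 15.4% with all libraries. Without replicate 3 with TGFb alone the number was 45 (18.9% of all genes). Fitting just the 12 libraries of the comparison gave 17 (9.64%). No gene of the set was called lower with Sora in any of these settings.

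Since the Nint calls were few, all 4 are named, chosen after their values were seen. ENSRNOG00000025074 had 4.70, 5.13 and 5.28 with Nint, against 3.86, 4.33 and 4.90 with TGFb alone, where replicate 1 at 4.90 overlapped with Nint (log2 fold change 0.69, SE 0.15). Its Pirf libraries lay at 4.93 to 5.52 and its Sora libraries at 4.21 to 4.87, so that Nint stood nearer to Pirf than Sora did. ENSRNOG00000020813 had 4.59, 4.84 and 4.99 with Nint, against 4.01, 4.35 and 4.51 with TGFb alone, with no overlap (log2 fold change 0.48, SE 0.13). In its case Pirf libraries stood above both, at 5.01 to 5.45.

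On the lower side, ENSRNOG00000056894 had 0.49, 1.34 and 1.64 with Nint, against 1.5, 2.04 and 2.58 with TGFb alone (log2 fold change -0.83, SE 0.19). Pirf libraries of this gene lay at 2.92 to 3.46 and time-0 libraries at 2.73 to 3.05, so Nint and Pirf stood on opposite sides of TGFb alone. ENSRNOG00000019388 had 6.40, 6.57 and 6.66 with Nint, against 6.55, 6.85 and 7.31 with TGFb alone (log2 fold change -0.40, SE 0.11), while Pirf libraries lay at 7.65 to 7.99 and untreated slices at 72 at 7.12 to 7.59. This gene stood near the limits on C and T, at 0.99 and -0.45.

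The calls of ENSRNOG00000020813 and ENSRNOG00000019388 were the least stable of the 4. The first was lost when Nint replicate 1, 2, 4 or 5 was left out, or replicate 2 or 4 with TGFb alone (adjusted p = 0.0642 to 0.108). The second was lost in 12 of 19 alternatives (0.05 to 0.158): without Nint replicates 1 to 5 in turn, without TGFb-alone replicate 2 or 3, with limma-voom, without scaling factors, with no filter, in the 12 libraries alone, and with a replicate block (0.0643). ENSRNOG00000056894 lost its call only in the 12 libraries alone (0.0534), and ENSRNOG00000025074 in none. The count of 4 became 2 when Nint replicate 1, 2 or 5, or replicate 2 with TGFb alone, was left out, when 1.96% to 2.3% of all genes were called in either direction, against 3.09% with all libraries.

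**Figure D4:**
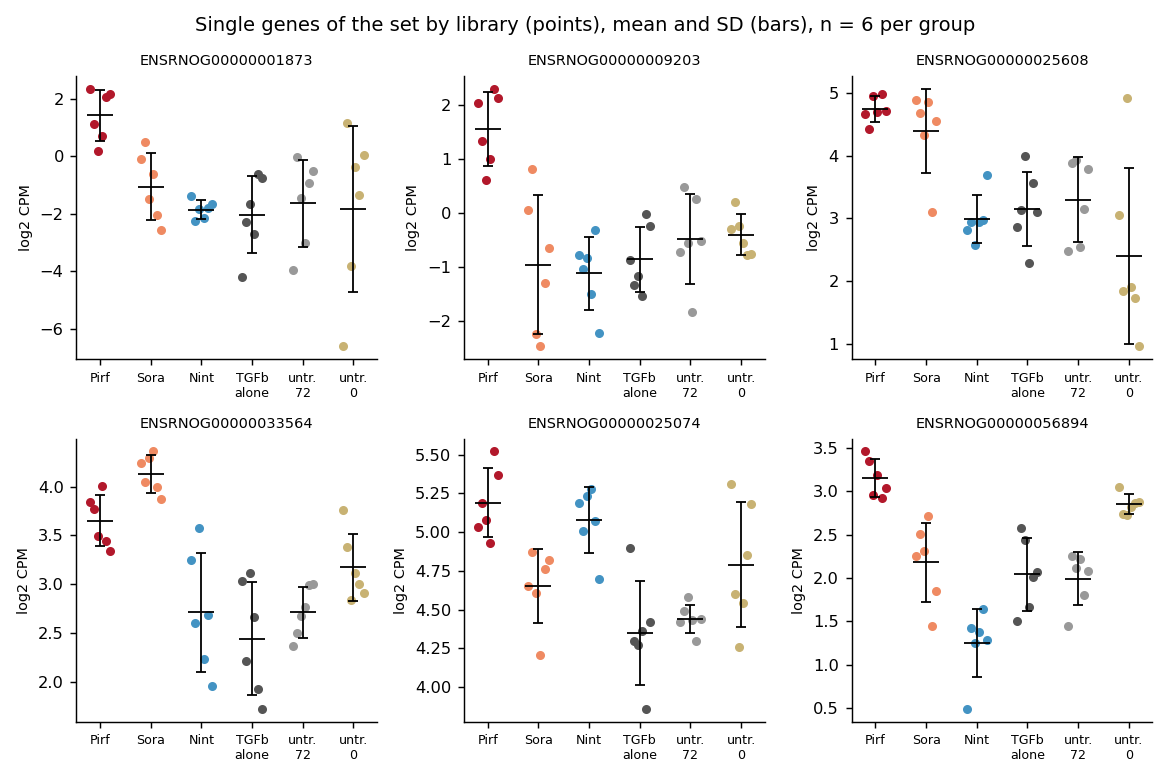
Points are the log2 CPM of the 6 libraries of each group for 6 genes of the set, with the mean and SD as bars; vertical scales differ between panels. In ENSRNOG00000001873 and ENSRNOG00000009203 Pirf libraries lie above those with TGFb alone, and in ENSRNOG00000033564 Sora libraries reach 4.36. In ENSRNOG00000056894 the Nint libraries, at 0.49 to 1.64, overlap with those with TGFb alone, at 1.5 to 2.58. Pirf libraries of that gene lie above both, which the limit on P favours for TGFb alone.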

How the data were processed

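RNA-seq libraries from rat lung slices were analysed, 36 in all. The submitters' processing notes name RSEM, edgeR and the build Rnor_6.0; no source used here names an aligner, an annotation release or a strand setting. The authors deposited expected counts per gene (32883 identifiers, unscaled) and log2 CPM for 14984 coding genes. The deposited log2 values equalled edgeR's log2 CPM with TMM factors and a prior count of 0.25.

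The set was chosen on the deposited log2 CPM. Expected counts were rounded, then fitted with edgeR 4.0.16 under R 4.3.3 (filterByExpr, TMM, 1 quasi-likelihood fit of all 36 libraries with a mean per group, glmQLFTest, Benjamini-Hochberg adjustment over 15644 genes, calls at an adjusted p under 0.05). All 165 genes passed the filter. SE is the absolute log2 fold change over the square root of F. The fit was checked on simulated data in which all genes had the same dispersion and varied independently. These data differ in both, so the check covers the code alone. Alternatives used limma 3.58.1, DESeq2 1.42.0, other scalings and filters, and left out libraries.

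The set and its comparisons were chosen with earlier results of these data known. With no gene names, the planned gene lists, markers and promoter motifs were not run, and only part of the naming rule was used: the largest P and, per comparison, the called genes with the largest log2 fold change.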

Additional observations from a re-analysis of the deposited data

Results flagged for a closer look

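In 60 groups of 6 values examined (9 genes in 6 groups, and the library medians of the set in 6 groups), 4 had 1 library far from the other 5, measured by its gap to the nearest against the range of the group; chance gives about 1 in 20. Sora replicate 5 stood low in ENSRNOG00000025608, at a log2 CPM of 3.10 where the next was 4.33, and in ENSRNOG00000008947, at 0.92 where the next was 2.33. Nint replicate 6 stood high in ENSRNOG00000025608, at 3.70 where the next was 2.98. Nint replicate 1 stood low in ENSRNOG00000056894, at 0.49 where the next was 1.25. Over the whole set, 13 of the 165 genes had 1 Sora library this far below the others and 4 had 1 this far above, together 10.3% of the set, against 5.83% of all coding genes.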

How the results depend on the processing

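The rule gave 283 genes without scaling factors, 152 of them shared with the 165, and the medians of P, T and C over all coding genes were then 0.16, -0.06 and 0.13; under other scalings, priors, filters and group medians it gave 131 to 197, and 143 to 208 when 1 library was left out. All 165 genes kept a P above 0 under each scaling, which the limit on P favours. That limit was still met by all 165 without scaling factors. It was met by 154 with RLE factors, another way of scaling, and by 160 with a prior count of 2. For Sora against Nint the number called was 55 without scaling factors, 20 to 56 with 1 library left out, and 27 to 44 in the other 6 alternatives. For Sora against TGFb alone it was 17 in the 12 libraries alone and 21 to 45 with 1 library left out; for Nint against TGFb alone it was 2 to 6 with 1 library left out, and for Pirf against TGFb alone 154 to 161. Same-numbered libraries did not deviate together: 19 of 90 pairs had a correlation over 0.1 (range -0.26 to 0.48), and 15 of 90 libraries correlated best with their own number in the other group. With the replicate number as a block, 40 genes were called for Sora against Nint, 36 for Sora and 3 for Nint against TGFb alone, and 160 for Pirf. The depth, and 6 libraries a group, limit the lowest genes most.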
